A study of Mus musculus with 52 samples.

Results

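This account covers 17935 H3K27ac peaks of the mouse suprachiasmatic nucleus (SCN) that were called both in darkness and after 1 h of light and that lie on H3K4me3. Each is a row of the light H3K27ac list that shares 1 bp or more with a row of the dark H3K27ac list and with a row of both H3K4me3 lists. They make up 44.4% of the 40403 light H3K27ac rows. The members were thus chosen by the presence of a peak in all 4 lists, and that presence is not a finding. They overlapped 11232 separate dark H3K4me3 rows, so many share 1 H3K4me3 region.

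All animals were male mice of 11 to 12 weeks. The chromatin libraries came from wild-type SCN, 1 library for each mark with and 1 without 1 h of light, each from 2 pairs of SCN. RNA was sequenced from pools of 6 pairs. In the Npas4 experiment, wild-type littermates and Npas4-/- mice (the libraries labelled null) were each kept dark or given 1 h of light at circadian time (CT) 17, with 3 libraries a group. In a light-pulse experiment, wild-type mice received 0.5, 1, 3 or 6 h of light (4, 2, 2 and 2 libraries) or stayed dark and were taken at CT17 (4 libraries) or CT23 (2 libraries). The labels do not give the stretch of Npas4 that the null allele lacks. Total counts ran from 26638939 to 32097975 in the 12 libraries of the Npas4 experiment. In the light-pulse experiment, 12 libraries had 12477382 to 15369985 counts, and the 4 whose titles end in s had 27413860 to 30149286.

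Acetylation of lysine 27 on histone H3 is laid down by the acetyltransferases CBP and p300 and marks active promoters and enhancers. Trimethylation of lysine 4 is written by SET1 and MLL complexes and is concentrated at the starts of transcribed genes, so that a region with both marks is usually an active promoter. In the SCN, light at night reaches neurons through retinal glutamate and PACAP, raises calcium and cAMP, and activates MAPK signalling. CREB, bound to the cAMP response element (CRE), then drives immediate-early genes and the clock gene Per1.

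The upstream promoter sequences of 6 light-responsive genes with a peak near the start are shown first, since the results on acetylation, H3K4me3 and RNA turn on them. Each is the 250 bases before a RefSeq start on GRCm38.p6, plus strand, 5′ to 3′, and capitals mark the CRE half-site TGACG or its reverse complement. At Fos the window is chr12:85473640-85473889, at Nr4a1 chr15:101266596-101266845, at Homer1 chr13:93303507-93303756, at Fosl2 chr5:32136222-32136471, at Per1 chr11:69099902-69100151 and at Pim1 chr17:29490535-29490784.
Fos: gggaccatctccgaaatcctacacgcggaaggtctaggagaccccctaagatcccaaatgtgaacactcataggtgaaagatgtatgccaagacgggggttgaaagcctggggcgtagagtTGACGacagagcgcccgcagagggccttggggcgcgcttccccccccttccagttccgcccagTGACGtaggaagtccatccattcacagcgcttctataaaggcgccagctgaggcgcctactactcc
Nr4a1: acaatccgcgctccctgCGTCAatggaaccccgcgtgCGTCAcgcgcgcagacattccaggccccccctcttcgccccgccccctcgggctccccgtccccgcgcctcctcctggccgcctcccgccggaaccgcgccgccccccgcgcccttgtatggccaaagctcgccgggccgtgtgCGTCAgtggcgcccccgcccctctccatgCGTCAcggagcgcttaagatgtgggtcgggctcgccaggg
Homer1: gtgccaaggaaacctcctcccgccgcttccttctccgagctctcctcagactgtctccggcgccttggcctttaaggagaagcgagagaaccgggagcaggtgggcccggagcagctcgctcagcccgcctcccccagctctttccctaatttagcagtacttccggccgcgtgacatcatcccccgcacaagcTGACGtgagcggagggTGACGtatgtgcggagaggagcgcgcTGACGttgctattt
Fosl2: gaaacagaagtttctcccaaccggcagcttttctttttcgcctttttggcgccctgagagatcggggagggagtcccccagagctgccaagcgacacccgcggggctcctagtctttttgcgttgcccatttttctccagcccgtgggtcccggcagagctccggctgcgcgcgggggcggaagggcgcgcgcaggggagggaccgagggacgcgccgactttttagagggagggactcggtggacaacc
Per1: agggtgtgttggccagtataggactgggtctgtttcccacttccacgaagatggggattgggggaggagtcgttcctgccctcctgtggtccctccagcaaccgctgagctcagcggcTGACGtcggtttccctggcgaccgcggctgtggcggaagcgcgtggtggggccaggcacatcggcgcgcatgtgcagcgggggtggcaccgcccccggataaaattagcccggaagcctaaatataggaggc
Pim1: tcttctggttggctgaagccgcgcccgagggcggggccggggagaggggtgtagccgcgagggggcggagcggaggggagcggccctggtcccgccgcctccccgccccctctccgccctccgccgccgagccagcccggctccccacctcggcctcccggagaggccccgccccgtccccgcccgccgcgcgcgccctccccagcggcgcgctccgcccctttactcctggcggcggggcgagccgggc
The Nr4a1 window holds 4 half-sites, the Homer1 window 3, all within 56 bases of the start, the Fos window 2 and the Per1 window 1. The windows of Fosl2 and Pim1 hold none, which says only that these letters are not in these bases. These 6 genes were chosen after their values were seen, so no relation of half-sites to acetylation can be read from them.

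The same letters were counted over all RefSeq windows of 300 bases, from 250 before to 50 after a start, on both strands. A full CRE, TGACGTCA, stood in 29 of the 189 windows of peak-bearing genes that rose after 1 h of light in wild-type littermates, which is 15.3%. It stood in 3.86% of the 6661 windows of all tested genes with a peak within 1000 bp, and in 1.79% of all 32851 windows. The half-site, which every full CRE contains, stood in 58.2%, 35.1% and 20.8% of these sets. Peak-bearing windows as a whole had a median GC content of 63% and a median observed to expected CpG ratio of 0.81, against 52.7% and 0.38 over all windows. The GC box GGGCGG, the letters of an Sp1 site, stood in 70.2% of peak-bearing windows, in 75.7% of those whose gene rose and in 35.7% of all. The AP-1 letters TGANTCA, bound by Fos and Jun proteins, stood in 3.63% of peak-bearing windows, 5.82% of those whose gene rose and 7.81% of all. The E-box CACGTG, bound by CLOCK and BMAL1, stood in 10.3%, 12.2% and 7.15% of the same sets. The TATA letters TATAAA stood in 5.27%, 12.2% and 13.6%. Genes that fell gave 29 windows, of which 1 held a full CRE. These shares describe letters and not bound sites, and the sets differ in GC content.

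Most of the peaks lay beside gene starts, on the flanks and not on the start itself. Of the 17935 summits, 12718 (70.9%) were within 1000 bp of a start, and 2522 (14.1%) were over 10000 bp from any. Among the 10553 within 1000 bp of a start of known strand, 63.4% were downstream. The fullest 100 bp bin ran from 100 to 200 bp downstream and held 1785 summits, while 7.15% lay within 100 bp of the start. The median distance was 271 bp downstream and 320 bp upstream. Peaks over 10000 bp from a start carried H3K4me3 of lower enrichment, with a median light fold of 14.7 against 33.1 near starts, while their H3K27ac enrichment was 5.84 against 6.10.

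**Figure D1:**
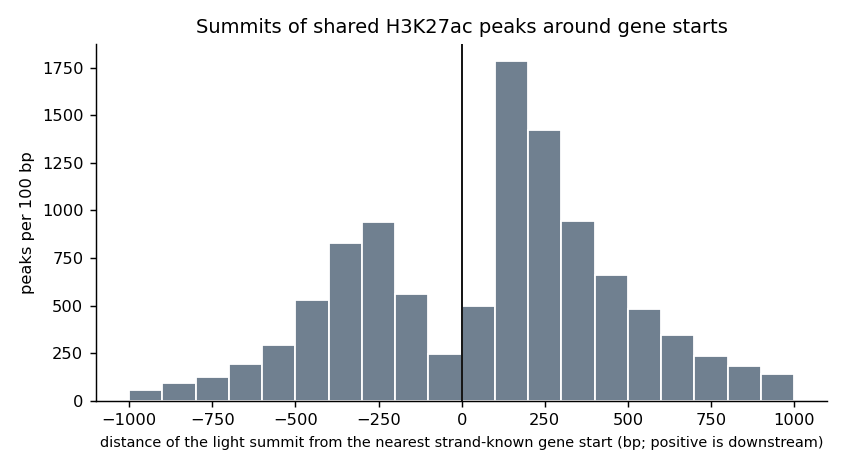
Number of shared H3K27ac peaks (vertical axis, per 100 bp) by the distance of their light summit from the nearest start of known strand (horizontal axis, bp, positive downstream). The bins on either side of the start hold 244 and 496 summits, fewer than the 941 between 300 and 200 bp upstream and the 1785 between 100 and 200 bp downstream.

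These peaks were wider and higher than the shared H3K27ac peaks with no H3K4me3. Their median width was 376 bp against 296 bp for the 7334 shared peaks with no H3K4me3 row. The peak caller's fold enrichment, the authors' own value for each row, had a median of 6.08 in light, against 5.05. The 8 highest light values ran from 16.7 to 21.3. The highest stood 560 bp upstream of Zc3h4, a zinc finger gene, with 21.3 in light and 21.4 in dark. The next stood by Kmt2e, an MLL-family gene, with 20.5 and 16.7. At the chaperone gene Hsp90ab1, the values were 16.7 in light and 8.12 in dark. None of the 7 tested genes nearest to these 8 peaks was called changed in RNA after 1 h of light in the wild-type littermates. Over all 8857 tested genes nearest to a peak, the shares were 2.90% higher and 0.474% lower. At the edge of the definition, 78 peaks overlapped 1 of the lists by under 10 bp and had a median light fold of 4.85. A further 72 light rows on both H3K4me3 lists missed a dark H3K27ac row by under 10 bp and had a median of 4.76.

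Fold enrichment was lower in light than in dark at most of the peaks, and the same was so for shared peaks in general. The median was 6.08 in light and 6.79 in dark, and 6229 peaks (34.7%, Wilson 95% interval 34.0% to 35.4%, counting error only) had the higher value in light. The median log2 ratio of light to dark was -0.16 here, -0.14 over all 26287 shared light rows and -0.11 over the 7334 with no H3K4me3 row. With each mark and condition in 1 library, signal to background of a library and a change of the mark cannot be told apart, so ratios are given below after subtracting the median of all shared rows ("centred"). No test of a ratio is possible without replicates. The centred ratio had an SD of 0.46 across the peaks. It passed 1.5-fold upward at 1484 peaks (8.27%) and downward at 2008 (11.2%), against 8.19% and 9.86% of all shared rows, which include these peaks. Among the 7334 shared peaks with no H3K4me3 row, the shares were 7.77% and 6.80%. H3K4me3 at the same places had a median fold of 36.7 in dark and 31.0 in light, a median log2 ratio of -0.24. Across the peaks, the ratios of the 2 marks had a Pearson r of 0.12, a description over points that share regions and libraries.

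**Figure D2:**
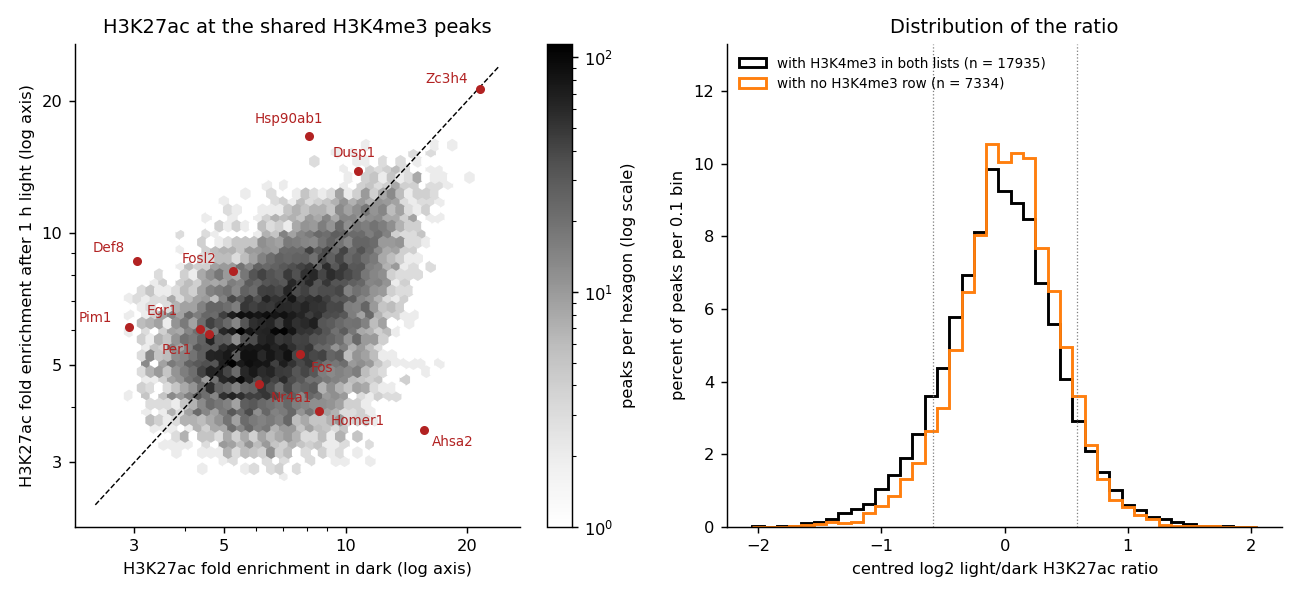
Left, H3K27ac fold enrichment in dark (horizontal) and after 1 h of light (vertical), both on log axes, with shading for the number of peaks and named peaks in red; the dashed line marks equal values. Right, percent of peaks by centred log2 ratio for the 17935 peaks on H3K4me3 and the 7334 with none; dotted lines mark 1.5-fold, and both distributions peak near 0.

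Neighbouring peaks of 1 promoter had nearly unrelated ratios. In 2874 genes, 2 peaks within 1000 bp of the start took their dark value from different rows. Their centred ratios had a Pearson r of 0.055 across genes, fell on the same side of 0 in 52.2% and differed with an SD of 0.62. The ratio also went down with the dark value it contains, from a median of 0.39 in the 1772 genes with the lowest dark enrichment to -0.23 in the 1772 with the highest. For genes with several peaks, the number of peaks on each side of 0 is therefore given beside the value at the start. These numbers include every peak nearest to the gene, at any distance, and neighbouring peaks can share a dark row.

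Among the genes with the highest and lowest ratios, 1 was called changed in the RNA of wild-type littermates. Over all 8857 tested genes nearest to a peak, 2.90% rose and 0.474% fell, so a count this small says little about extreme ratios. By the rule used for naming, the 12 highest ran from 1.52 to 1.93, with light values of 7.84 to 14.3 and dark values of 2.51 to 5.51. They stood near Slc43a2, an amino acid transporter gene (11.3 in light, 3.29 in dark), Zfp941 (12.4 and 3.84), Leprotl1 (7.84 and 2.51), Slc35b1 (13.2 and 4.24), Ech1, Taf7, Katnal2, Def8, the ribosomal protein gene Rps6, Elk4, Kctd7 and Hexim1. Of these 12 genes, only Elk4, a partner of serum response factor, rose in the RNA of wild-type littermates, by 0.99 (log2, SE 0.14, edgeR quasi-likelihood adjusted p = 0.000943). Its peak nearest to the start had a centred ratio of -0.0085, while the extreme one stood at 1.601. Taf7, a TFIID subunit gene, missed the threshold there (0.35, adjusted p = 0.0616) and was called at 1 h of the light-pulse experiment (0.50, edgeR adjusted p = 0.0476). The 8 lowest ratios ran from -1.997 to -1.75. They stood near Ahsa2, a cochaperone gene (3.55 in light, 15.7 in dark), Etv6, Lmtk3, Zfp523, Clcn6, Ociad1, Agbl3 and Atp6v0c, and none of these 8 genes was called changed in either genotype or at any time of the light-pulse experiment, by edgeR. At 6 of these 8 genes and 5 of the 12 above, another peak lay nearer to the start than the extreme one. Among the 6, it had a ratio of -0.14 at Atp6v0c, -0.38 at Lmtk3, -0.39 at Etv6, -0.51 at Agbl3 and -0.68 at Ociad1. Among the 5, beside Elk4, it was 0.091 at Slc43a2, -0.15 at Hexim1, -0.16 at Kctd7 and 1.42 at Ech1.

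Genes nearest to the peaks made up most of the active genes of the tissue. The peaks were nearest to 9085 genes, of which 8517 (93.7%) had 1 RPKM or more in the wild-type dark libraries, against 31.1% of the 12914 other genes. The median was 11.1 RPKM against 0.0781. The highest mean levels were those of Fth1, ferritin heavy chain (1651 RPKM in dark, 1556 in light), Cst3, cystatin C (1066 and 1005), and Nap1l5, an imprinted gene (1033 and 1035). At the other end, 215 of the genes had under 0.1 RPKM, and 64 were listed at 0 in all 3 dark libraries. Among the latter were Hist2h2aa1, Hist2h2aa2, Scamp4, Trex1, Zbed6 and Gm10961. The first 2 are near-identical histone genes, whose reads counting can lose.

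Within these genes, RNA level went up with each mark, and most with the width of the H3K4me3 region. Genes were put in 5 equal bins by each measure. From the lowest to the highest bin by dark H3K27ac enrichment, the median rose from 9.35 to 15.4 RPKM. By H3K4me3 enrichment it rose from 9.001 to 14.2 RPKM. By the width of the H3K4me3 row, whose end bins had medians of 1347 and 3590 bp, it rose from 7.05 to 15.5 RPKM. Spearman's rho across 8857 genes, which are not independent replicates, was 0.16, 0.16 and 0.26. Within every bin the quartiles of RPKM overlapped those of the others.

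After 1 h of light at CT17, 257 of the 8857 tested genes nearest to a peak rose and 42 fell in wild-type littermates (edgeR quasi-likelihood test, Benjamini-Hochberg adjusted p of 0.05 or less). That is 2.90% and 0.474%, against 2.23% higher and 0.34% lower among all 15001 genes tested. They held 76.7% of all genes called higher, though they make up 59.0% of the genes tested. Same-numbered light and dark wild-type libraries deviated together, and with the number as a block 448 of these genes rose and 147 fell. The count of falls was not stable. With any 1 of the 6 wild-type libraries left out, 10 to 26 genes fell, while 189 to 256 rose. Labels do not say whether pools share animals or litters, so p-values measure the spread between pools. In bulk tissue, a change in the cells that carry an RNA and a change per cell cannot be told apart.

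The immediate-early genes, transcription factors and regulators that need no new protein for their induction, moved most. Of 25 listed immediate-early genes nearest to a peak, 18 rose and none fell, with a median log2 change of 1.97, against -0.010 over the 8857 genes nearest to a peak and -0.012 over all 15001. All 8 tested genes of the list that were not nearest to a peak rose as well. Their median centred H3K27ac ratio was 0.010, and 14 of 25 were above 0, against 0.0040 and 50.4% over the 8857 genes.
Fos, a subunit of the AP-1 factor, was at 3.56, 3.30 and 3.43 RPKM in the 3 dark libraries and 120.5, 100.3 and 109.5 in light. The groups did not overlap, and the log2 change was 5.03 (SE 0.20, edgeR adjusted p = 2.89e-08). Its peak beside the start, chr12:85473568-85473818, had an H3K27ac fold of 5.30 in light and 7.69 in dark. Of its 10 peaks, some of them 11815 to 51142 bp from the start, 8 had a centred ratio below 0. They are not all separate readings, since pairs of them share dark values of 14.7, 9.14 and 6.46.
Nr4a1, an orphan nuclear receptor, went from 3.35, 3.46 and 4.25 RPKM to 96.8, 73.8 and 85.7. Its log2 change was 4.55 (SE 0.17, edgeR adjusted p = 2.89e-08). At its start, chr15:101266892-101267073, the H3K27ac fold was 4.53 in light and 6.12 in dark, and of its 3 peaks 2 had a ratio below 0. The other 2 of the 3 lay 20890 and 19972 bp from the start, with ratios of 0.0078 and -0.0054. Light-only rows, which the definition leaves out, stood from -526 to -275 bp of the start at 6.12 and from 376 to 795 bp at 4.33.
Fosl2, which encodes the AP-1 subunit Fra-2, went from 1.47, 1.27 and 1.22 RPKM to 43.2, 34.2 and 38.5. Its promoter peak, chr5:32135981-32136707, stood at 8.20 in light and 5.25 in dark, and 5 of its 6 peaks had a ratio above 0. Egr1, a zinc finger factor, went from 2.12, 1.59 and 1.73 RPKM to 139.1, 124.6 and 136.0, and both of its peaks had a ratio above 0, of 0.28 and 0.61. Fosb had the largest log2 change among these genes, 7.19 (SE 0.29), and a centred ratio of 0.00 at its start, with 1 of its 5 peaks above 0 and 3 below. Junb, at 2.90, 3.02 and 2.95 RPKM in dark and 90.7, 75.1 and 83.5 in light, had H3K27ac values of 10.0 in light and 10.1 in dark. Its wide light peak spans several dark rows, and against the one with the longest overlap, at 5.24, its centred ratio was 1.07 in place of 0.13. Of its 3 peaks, 2 were above 0. RNA of all 6 genes was separated between the groups by far more than its spread, while the centred acetylation ratio at their starts was below 0 at Fos (-0.39) and Nr4a1 (-0.29), nearer to 0 at Fosb and, by the highest dark row, at Junb (0.13), and above 0 at Fosl2 (0.79) and Egr1 (0.61).

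Feedback inhibitors of MAPK and cAMP signalling gave 10 rises and no fall among 24, and 3 of the 4 not nearest to a peak also rose. The phosphatase gene Dusp1 went from 4.55, 3.46 and 3.75 RPKM to 29.3, 21.2 and 26.2, with H3K27ac of 13.8 in light and 10.7 in dark at its start and 3 of its 5 peaks above 0. Another phosphatase gene, Dusp4, went from 2.37, 2.18 and 2.02 RPKM to 24.9, 19.8 and 22.8, and its start peak stood at 8.10 and 6.46, while its other peak was below 0. Spry2, a receptor kinase inhibitor, rose by 1.11 (log2, SE 0.086, edgeR adjusted p = 5.56e-06), with 12.1 and 7.56 and 4 of its 5 peaks above 0. The median centred ratio of the list was 0.055, with 14 of 24 above 0.

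Of 22 core clock genes nearest to a peak, 4 rose and none fell: Per1, Per2, Bhlhe40 and Rora. Per1, a period gene known to respond to light at night, went from 9.12, 8.46 and 8.54 RPKM to 39.4, 37.4 and 38.4, a log2 change of 2.16 (SE 0.11, edgeR adjusted p = 1.93e-07). All 4 of its H3K27ac peaks had a centred ratio above 0, from 0.14 to 0.75. Its H3K4me3 was also higher in light, with a fold of 34.4 against 19.2 at the start, where the median gene had a lower value in light. Per2 went from 9.28, 8.65 and 9.04 RPKM to 19.3, 20.6 and 24.99, and 3 of its 4 peaks had a ratio above 0. The list's median centred ratio was 0.13, with 14 of 22 above 0. The 2 clock genes not nearest to a peak were not called.

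Late-response genes, effectors that act at synapses and in growth, gave 12 rises and no fall among 19, with a median centred ratio of 0.26 and 14 above 0. Of the 10 tested without such a peak, 3 rose. Homer1, a postsynaptic scaffold gene, stood at the low end. It rose from 3.39, 3.46 and 2.97 RPKM to 27.6, 23.9 and 28.7, while its start peak, chr13:93303057-93303974, had 3.93 in light and 8.60 in dark, and its other peak was also below 0. Pim1, a kinase gene, stood at the high end. It rose from 2.85, 3.94 and 3.41 RPKM to 12.1, 9.53 and 11.0, with 6.10 in light and 2.91 in dark at chr17:29490975-29491703, and 5 of its 7 peaks were above 0. Some of these 7 lay 30872 to 53634 bp from the start. Of 17 SCN transcription factor genes nearest to a peak 1 rose, and of 4 SCN peptide and receptor genes none was called. Of those not nearest to a peak, none of 6 transcription factor genes and 2 of 17 peptide and receptor genes rose. Among 30 enzymes of histone acetylation and H3K4 methylation, all nearest to a peak, none was called changed, and their median log2 change was 0.026. The shares over all 8857 genes nearest to a peak were 2.90% higher and 0.474% lower.

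Falls were smaller. The 12 largest ran from -1.29 to -0.46 on the log2 scale. Hes5, a Notch target, went from 17.3, 13.51 and 20.1 RPKM to 7.99, 6.48 and 5.93 (log2 change -1.29, SE 0.19, edgeR adjusted p = 0.00165), with H3K27ac of 4.79 in light and 4.38 in dark and its other peak below 0. Fzd8, a Wnt receptor gene, went from 6.74, 9.83 and 7.42 RPKM to 4.06, 4.11 and 3.66, with 5.25 and 5.85, a centred ratio of -0.013 that was 0.14 against the dark row of longest overlap. The others were Ankrd37, Sox4, Ankrd34a, Hs3st1, Dusp7, Ccdc166, Id3, Mycl, Tfap4 and Zkscan4. Of the 12 falls, 7 (Ankrd37, Fzd8, Hs3st1, Id3, Sox4, Tfap4 and Zkscan4) were not past the threshold under 1 or more alternative fits, most of them without 1 library, whereas all 12 of the largest rises passed under every one. Centred ratios of the 12 falls were below 0 in 8 and above 0 in 4.
Markers of oligodendrocytes, astrocytes, microglia, endothelium, neurons and neighbouring hypothalamus held no gene nearest to a peak that was called, and none elsewhere. Microglial markers, 10 of 10 tested, had no such peak, and their summed level was 157.8 to 183.1 RPKM in dark and 170.0 to 177.3 in light. The oligodendrocyte sum was 864.5 to 1317 in dark and 1021 to 1124 in light, and the neuronal sum 856.2 to 935.5 and 862.7 to 938.2. Markers of the neighbouring hypothalamus varied most between pools, with sums of 389.6 to 782.0 in dark and 537.6 to 760.0 in light. The 3 of them nearest to a peak had a median log2 change of 0.37, none called, and their part in the results was not tested.

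Over all genes, the H3K27ac ratio at the start had almost no relation to the RNA change, with a Spearman rho of 0.0093 across 8857 genes. Genes called higher lay somewhat more often at high ratios. From the lowest to the highest of 5 bins by centred ratio, 38, 34, 50, 71 and 64 genes of about 1771 each rose. The genes called higher had a median centred ratio of 0.12 against 0.0040 for all, and 157 of 257 (61.1%, Wilson interval 55.0% to 66.8%, counting error only) were above 0 against 50.4% of all. Past 1.5-fold upward were 13.6% of them against 8.999%, and past 1.5-fold downward 5.84% against 9.08%. Of the 12 genes with the largest rises, 8 had a ratio above 0 and 3 below. The CRE half-site stood in 39.2% of the 1333 promoter windows in the highest of 5 bins by ratio. In the 1333 windows of the lowest bin the share was 31.5%. A full CRE stood in 4.65% and 2.93%.

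**Figure D3:**
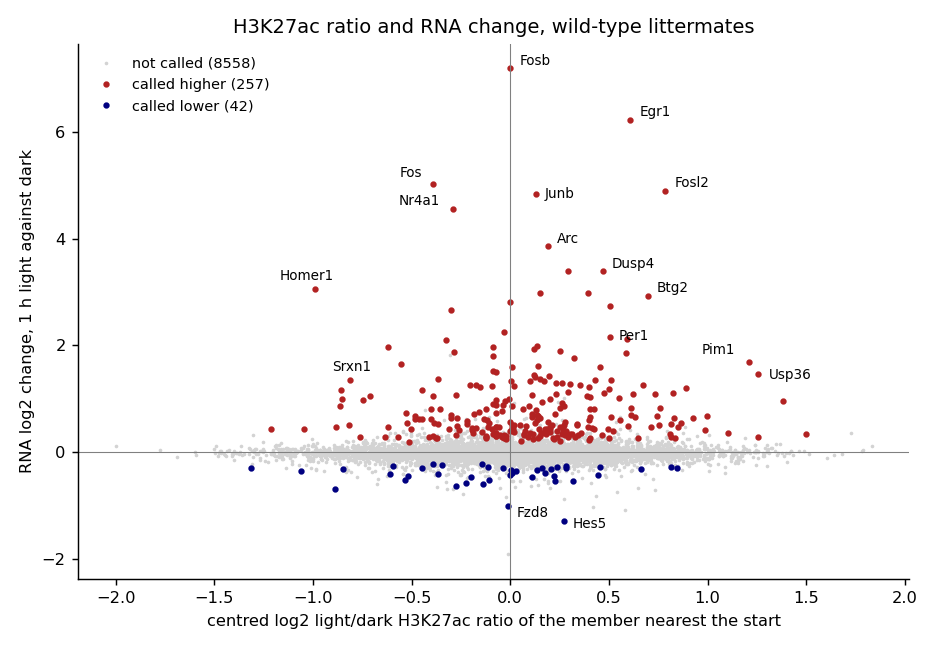
RNA log2 change after 1 h of light in wild-type littermates (vertical) against the centred log2 H3K27ac ratio of the peak nearest to the start (horizontal), for 8857 genes; red and blue mark the 257 genes called higher and the 42 called lower. Fos, Nr4a1 and Homer1 rise at ratios below 0, and Fosl2, Egr1 and Pim1 at ratios above 0.

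Genes that rose after light more often had a longer H3K4me3 region downstream of the start in light than genes in general. Bases covered by H3K4me3 rows were summed over 4000 bp on each side of the start in 6661 genes of known strand. In most genes the light cover was shorter, by a median of 108 bp downstream and 71 bp upstream. Downstream cover was longer in light in 21.6% of all genes, in 39.7% of the 189 genes called higher and in 60.8% of the 51 with a log2 change of 1 or more. Upstream, the shares were 19.7%, 22.8% and 27.5%. Only 9 of the 6661 genes gained 500 bp or more downstream, and 7 of these 9 were called higher in RNA: Ccnl1, Fos, Fosl2, Plk2, Nr4a1, Dnajb5 and Traf3ip1. The other two, Trp53i11 and Herpud2, were not called. No gene gained 500 bp upstream.
Fos went from 1859 bp of downstream cover in dark to 2960 bp in light, and Fosl2 from 1370 to 2335 bp. Nr4a1 went from 1424 to 2224 bp, while its upstream cover went from 834 to 778 bp. Plk2, a Polo-like kinase gene, went from 2137 to 2969 bp. Homer1 differed by 6 bp and Junb by -112 bp, so the pattern did not hold for every strong rise. Median H3K4me3 fold in genes called higher was 37.1 in dark and 31.9 in light, a median log2 ratio of -0.22, beside 38.8, 33.1 and -0.23 for all tested genes nearest to a peak.
H3K27ac cover downstream went the same way, longer in light in 48.5% of all genes, 58.7% of those called higher and 70.6% of those with a log2 change of 1 or more. At Fos it went from 0 to 583 bp, at Fosl2 from 0 to 591 bp, at Nr4a1 from 239 to 602 bp and at Dusp1 from 1541 to 2592 bp. Other genes called higher had less in light, among them Rora, which went from 1724 to 625 bp, Dusp6 from 1560 to 736 bp and Srf from 1617 to 968 bp. Upstream H3K27ac cover was longer in 45.5%, 66.1% and 70.6%, so for that mark the difference was not on the downstream side alone. Row ends depend on the depth and background of each library, and these shares come from 1 library per mark and condition, with the length chosen after the maps had been seen.

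**Figure D4:**
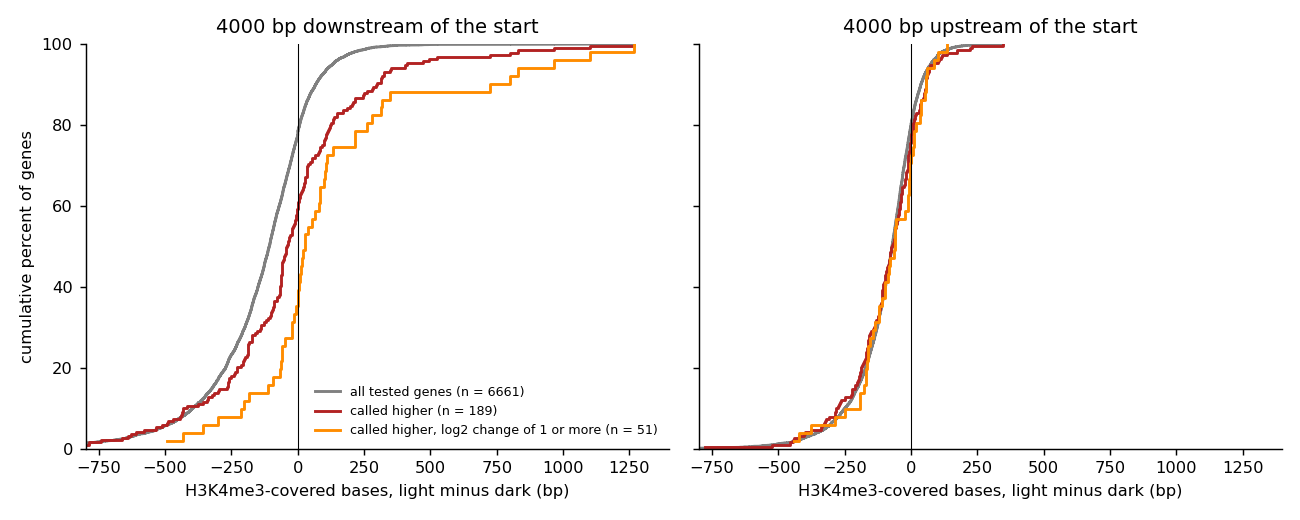
Cumulative percent of genes (vertical) by the light minus dark difference in H3K4me3-covered bases (horizontal, bp) within 4000 bp downstream (left) and upstream (right) of the start. The curves of genes called higher lie to the right of all genes downstream, where 39.7% against 21.6% exceed 0, and nearly coincide with it upstream.

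**Figure D5:**
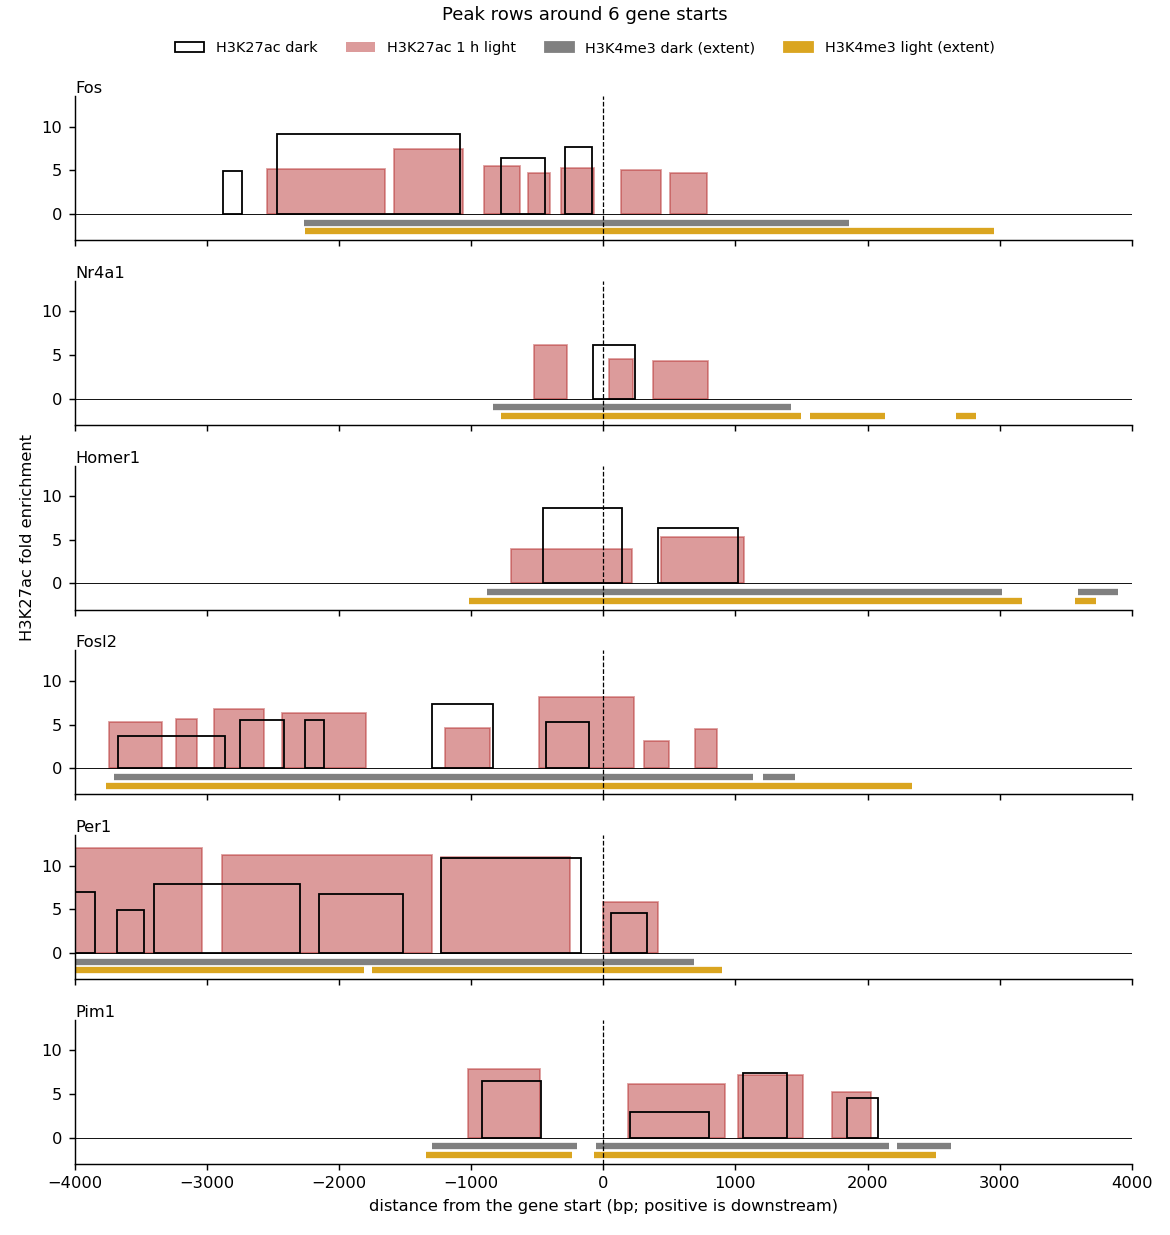
Rows of the 4 peak lists within 4000 bp of 6 gene starts (horizontal, bp, positive downstream). Box height is H3K27ac fold enrichment in dark (open) and light (red), and bars below 0 show the extent of H3K4me3 rows only. Light H3K4me3 rows reach further downstream at Fos, Nr4a1 and Fosl2. Of the overlapping H3K27ac boxes at the start, the dark one is the taller at Fos, Nr4a1 and Homer1. Upstream of Nr4a1, a light box with no dark counterpart reaches 6.12, the same height as the dark box at the start.

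Several of the strongest inductions occurred at starts with none of these peaks. Of the 335 genes called higher, 78 were not nearest to any. Of all genes called higher, 41 had H3K4me3 but no H3K27ac row within 1000 bp of a start in either list. The 10 largest changes among the 78 were those of Egr2, Egr3, Fosl1, Egr4, Orc1, Rrad, Prok2, Maff, Gprc5a and Areg, all with H3K4me3 in both lists. Egr3, a zinc finger factor gene, went from 0.451, 0.497 and 0.559 RPKM to 43.2, 31.3 and 42.8 with no H3K27ac row in either condition. Egr2, Egr4, Gprc5a, Areg and Prok2, the gene of an SCN output peptide, likewise had none. Rrad, a small GTPase gene at 3.48, 3.67 and 3.52 RPKM in dark and 105.3, 76.2 and 103.8 in light, and Maff had an H3K27ac row in light only. Fosl1 and Orc1 have a shared peak within 1000 bp that is nearer to another gene. At starts with H3K4me3 only, 1.45% of 2833 tested genes rose, against 2.88% of 8702 with a shared peak, 2.99% of 669 with H3K27ac in light only and 1.35% of 886 with it in dark only. At the 1483 starts with no row of any list, 0.27% rose. In the same order, the median dark levels of these 5 sets were 1.71, 11.7, 6.20, 5.21 and 0.545 RPKM. A rise is harder to call at low counts, and the part of level in these shares was not tested.

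Npas4 encodes an activity-dependent transcription factor, and its own level did not separate the genotypes in darkness. It was at 2.703, 2.44 and 2.62 RPKM in wild-type dark and 1.66, 3.02 and 3.22 in the dark libraries labelled null. In light it was at 4.15, 3.21 and 4.30 in wild-type and 1.40, 2.24 and 1.58 in those labelled null, with no overlap. Reads outside a deleted stretch check nothing.
In the libraries labelled null, 171 of the 8857 genes rose (1.93%) and 11 fell (0.124%) after light, against 1.45% and 0.113% of all genes. Of the 171, 161 (94.2%) also rose in wild-type, which is 62.6% of the 257. Without light replicate 2 of these libraries, 120 genes were called in place of 182. The difference of the light response between genotypes was called at 2 of 15001 genes (0.0133%), Fos and Nr4a1, both with peaks here, among 342 genes with an unadjusted p under 0.05. Fos was at 7.85, 10.3 and 9.67 RPKM in dark and 58.0, 95.2 and 88.6 in light in the libraries labelled null, so its dark level was above every wild-type dark library and its light level below every wild-type light library. Its difference was -1.88 (log2, SE 0.25, edgeR adjusted p = 0.0453). Nr4a1 was at 8.30, 9.26 and 9.05 RPKM in dark and 49.8, 71.8 and 67.4 in light, a difference of -1.70 (SE 0.21, edgeR adjusted p = 0.0446). The dark groups did not overlap for it either. Leaving out null dark replicate 2 or 3, null light replicate 3 or any 1 of the 6 wild-type libraries left no call, while DESeq2 called 8 genes nearest to a peak.

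The light-pulse series gave the time course of the same genes. The groups of 0.5, 1 and 3 h were compared with dark CT17, and that of 6 h with dark CT23. Before 6 h, light and the circadian time that passed cannot be told apart, and the reference changes at 6 h. The labels do not say whether a library whose title ends in s comes from the same pool as the one with the same number. If so, the CT17 and 0.5 h groups hold 2 independent pools each, and p-values against CT17 are too small. At 0.5 h, 53 of 8781 tested genes nearest to a peak rose and 2 fell, against 0.454% and 0.0138% of all 14524 genes. At 1 h, 134 rose and 12 fell, against 1.11% and 0.158%. At 3 h, 222 rose and 105 fell, against 2.2% and 1.05%. At 6 h, compared with CT23, 85 rose and 34 fell, against 0.998% and 0.413%. Genes nearest to a peak thus made up 83.2% of all rises at 1 h and 58.6% at 6 h, beside their 60.5% of the genes tested there. Of the 134 risers at 1 h, 122 (91.0%) had risen in wild-type littermates, and of the 222 at 3 h, 105 (47.3%).
Single genes followed different courses. Fos changed by 4.97, 4.40, 2.11 and 0.27 (log2) at 0.5, 1, 3 and 6 h, past the threshold at the first 3. Homer1, with 0.15, 2.03, 0.95 and -0.024, was called at 1 and 3 h only, and the differences between times were not tested. Per1 changed by 0.87, 1.74, 0.62 and 0.45, called at all but 6 h. Per2 changed by 0.018, 0.69, 1.09 and 1.41, called from 1 h on. Of the 12 genes with the largest rises in wild-type littermates, 11, 12, 11 and 3 were called in these data at 0.5, 1, 3 and 6 h.
These counts rested on few libraries. The fit has a term for the title suffix s. With the batch of the labels in its place, 729 genes nearest to a peak were called at 1 h, in place of 146, 1057 at 3 h, in place of 327, and 79 at 6 h, in place of 119. Without light replicate 1, 85 were called at 1 h. At 3 h, 201 were called without CT17 replicate 1, 179 without light replicate 1 and 132 without light replicate 2. At 6 h, leaving out CT23 replicate 1 or 2 gave 69 or 46, and leaving out light replicate 1 or 2 gave 50 or 72.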

How the data were processed

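The members, gene lists and lengths were chosen with earlier results of these data known. Per the submitters' processing notes, the series used mm10, BWA 0.7.16a, MACS2 2.1.1, HOMER 4.9.1, bedtools 2.25.0, STAR 2.7.1a or 2.5.2b, HTSeq 0.9.1 and featureCounts 1.6.2; which tool made which table, and whether counting used strand, is not given in the sources used here. The authors deposited 1 peak list per mark and condition, with a fold enrichment (ratio) and −log10 p and q values per peak, and raw counts and RPKM per gene. Peaks were called per library; the labels and lists do not state the read depth of the chromatin libraries.

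Overlaps of 1 bp or more were computed in Python 3.11.15. A dark value is the highest overlapping dark row. Starts are those of RefSeq on GRCm38.p6, the same build; 21328 of the 21999 genes in the tables were placed, 16829 by a start of known strand and 4499 by the nearer gene end. A gene with several peaks is given by the one nearest to its start. Counts were tested with edgeR 4.0.16 (quasi-likelihood, TMM, filterByExpr), leaving 15001 and 14524 genes, with 4 groups in the Npas4 experiment and groups plus the title suffix in the other. The test was checked on simulated counts. RPKM served only for levels. DESeq2 1.42.0 and other settings were alternatives. Chosen for naming were the 12 highest and 8 lowest ratios among peaks at or above the median enrichment within 1000 bp of a tested gene, the 8 highest light values, called genes of 6 functional lists, the 12 largest RNA changes each way, the 10 largest rises without a peak, and the 6 highest and 6 lowest RPKM. Ccnl1, Dnajb5, Traf3ip1, Trp53i11 and Herpud2 and the genes with printed promoters were chosen after their values were seen.

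Same-numbered wild-type libraries deviated together (correlations of 0.20, 0.25 and 0.26), as did those of 0.5 h and CT17 (0.35, 0.51, 0.12 and 0.51), all above 0.1. The numbers may thus mark pairs there, from the data only. At 0.5 h, the deviations also hold any difference between libraries with and without the suffix s. The 0.5 h correlations alone therefore do not show pairs. The main tests did not pair libraries, and the number entered only as a block in an alternative fit. At 0.5 h, replicates 1 and 2 correlated better with another CT17 library (0.354 against 0.346, and 0.306 against 0.122). Libraries with and without the suffix s differed beyond sampling noise (chi-square per degree of freedom 10.4 to 30.3) and were kept apart, though this does not show that they come from separate pools. Single-nucleus libraries of the series were not used here.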

Additional observations from a re-analysis of the deposited data

Results flagged for a closer look

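The light response of Fos and of Nr4a1 differed between genotypes by the interaction test of edgeR across 15001 genes. For Fos the log2 change in the libraries labelled null minus that in wild-type was -1.88, with lower light and higher dark levels in all 3 libraries of each kind. For Nr4a1 it was -1.70, likewise with higher dark and lower light levels in all 3 libraries. Both calls were lost when any 1 wild-type library was left out. Among the 12 genes with the largest rises, 24 sets of 4 light-pulse values were searched for a library far from the others, and 0 passed the limit. The limit is set for about 1 in 20 by chance. All sets come from the same CT17 and 0.5 h libraries, with and without the suffix s, so that rate does not apply.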

How the results depend on the processing

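The number of peaks was 14312 with 50% of the light row covered by each list and 12737 at a −log10 q of 5 in all lists. The share of peaks with the higher value in light moved from 34.7% to 35.8% with the longest overlap, 37.2% at the stricter q and 49.0% after quantile matching. Quantile matching gives light and dark the same distribution over all shared rows, so a share near 50% is largely set in advance. Genes nearest to a peak called in either direction, in place of 299 in wild-type, ranged from 204 to 282 without 1 replicate, and 396 were called by DESeq2. The other ranges without 1 replicate were 120 to 180 in the libraries labelled null, 0 to 3 for the genotype difference, 44 to 55 at 0.5 h, 85 to 126 at 1 h, 132 to 254 at 3 h and 46 to 72 at 6 h. DESeq2 called 8 genes for the genotype difference. With the labelled batch, 729, 1057 and 79 genes were called at 1, 3 and 6 h. Between the highest and the lowest of 5 bins by ratio, the median RNA change differed by 0.00013, and 0.018 with the RNA of the 1 h light pulse. Longer downstream H3K4me3 in genes called higher was 29.6% in a window of 2000 bp and 37.6% in 8000 bp, beside 19.4% and 20.5% of all genes; these windows were chosen after seeing the data, as were 7 alternatives for the ratio in genes called higher: 3 that assign it differently, 2 that restrict the genes and 2 that take other RNA calls. Under those 7, 59.5% to 63.4% of genes called higher had a ratio above 0. Of 57 named genes called in wild-type, 47 stayed past the threshold under all 10 alternatives and none reversed; of the 10 that did not, 7 were among the 12 largest falls. The cause of these shifts was not tested. With 1 chromatin library a condition, no ratio has an error.

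With the replicate number as a block, 595 genes nearest to a peak were called in wild-type (555 higher and 200 lower over all genes, in place of 335 and 51), 351 in the libraries labelled null and 186 at 6 h. In the null libraries the same-number correlations were 0.23, 0.48 and 0.098, not all above 0.1, so there the samples share only a number; light replicate 3 correlated best with dark replicate 1 (0.13). The block kept the 2 calls of the genotype difference and moved the counts at 0.5, 1 and 3 h to 71, 167 and 459.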
